A study of Mus musculus with 225 samples.

Results

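Secreted and membrane proteins fold in the endoplasmic reticulum (ER), and 9 genes for ER chaperones and collagen-folding enzymes were followed across single cells of the embryonic mouse forelimb. They are the protein disulfide isomerases *Pdia3*, *Pdia4*, *Pdia6* and *P4hb*, the chaperones *Hspa5* and *Hsp90b1*, the lectin chaperones *Calr* and *Canx*, and the collagen chaperone *Serpinh1*. The members were chosen by a rule that used measured values, because *Pdia3* is among the genes with the largest difference between the autopod and the zeugopod over all cells, and the other 8 were named beside it as ER folding factors. All 9 are among the 23165 genes of the count table and the 10948 genes of the normalized table.

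Limbs were dissected at embryonic day 12.5 into the autopod, where digits form, and the zeugopod, where the forearm forms. All embryos were *Hoxd11::GFP* heterozygous on a mixed C57Bl6CBAF1 background, with a tau-GFP knock-in placed in frame with *Hoxd11*, so each cell of each group carried 1 inactivated *Hoxd11* copy. Cells in the top 20% of GFP fluorescence were sorted, captured on a Fluidigm C1 chip and sequenced in 3 runs. The sample labels speak of pools from 8 embryos and the series text of 8 forelimbs. No label names the embryo of a cell, so each tissue is 1 pooled sample in which single cells cannot stand as replicates. Accordingly neither p-values nor standard errors are given. Of 69 autopod cells in run NXT0072 the authors retained 59, and of 60 zeugopod cells in run NXT0142 they retained 58. In NXT0143, which is the run that holds both tissues, they retained 17 of 27 autopod cells and 65 of 69 zeugopod cells. Between the autopod cells of NXT0072 and the zeugopod cells of NXT0142, tissue and run cannot be told apart.

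Protein disulfide isomerases form and rearrange the disulfide bonds of new proteins, while *Hspa5* (BiP) and *Hsp90b1* (GRP94) hold chains that have not yet folded, and calnexin and calreticulin bind sugars on new glycoproteins and present them to *Pdia3*. Procollagen is a demanding client of this machinery in limb mesenchyme: *P4hb* is the beta subunit of the prolyl 4-hydroxylase that stabilizes the collagen helix, and *Serpinh1* (HSP47) binds the helix on its way to the Golgi. *Col1a1* encodes a chain of the main fibrillar collagen of connective tissue and bone, and *Col2a1* the chain of the main collagen of cartilage.

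Reads on genes per retained cell had a median of 3076199 in autopod cells of NXT0072 (range 261335 to 9437447) and of 2641867 in autopod cells of NXT0143 (187344 to 4312635). The medians of the zeugopod cells were 4048526 in NXT0142 (186271 to 6801278) and 2659813 in NXT0143 (425695 to 4282436). The median number of genes with any read was 3528 in autopod NXT0072, 3965 in autopod NXT0143, 4283.5 in zeugopod NXT0142 and 3745 in zeugopod NXT0143. Levels are given on the normalized scale, for which the authors state that reads were scaled by size factors from spike-in RNAs, run by run, and then by the length of the gene, so that levels of different genes can be compared. The size factors recovered from the deposited values did not follow the totals of the spike-in RNAs in the count table (Spearman's rho -0.224, 0.0343, 0.0883 and 0.152 in autopod NXT0072, autopod NXT0143, zeugopod NXT0142 and zeugopod NXT0143), so what the normalized scale corrects for was not settled. A gene without reads keeps a lowest value, its floor, that depends on its length alone. Reads per 1000000 on genes (CPM) were used beside it, and detection in a cell required 5 reads or more. Reads carry no molecular identifiers, so the exact binomial (Clopper-Pearson) 95% intervals given for shares of cells cover counting error only.

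The tissue labels were checked against marker genes. At least 1 of the 4 autopod markers (*Hoxd13*, *Hoxa13*, *Msx1*, *Lhx9*) was detected in 98.3% of autopod cells of NXT0072 and in 82.4% of those of NXT0143, against 39.7% and 16.9% of zeugopod cells of NXT0142 and NXT0143, where most detections were of *Lhx9*. At least 1 of the 3 zeugopod markers (*Shox2*, *Meox2*, *Hoxa11*) was detected in 84.5% and 83.1% of zeugopod cells of NXT0142 and NXT0143, in 16.9% of autopod cells of NXT0072 and in 0 of 17 autopod cells of NXT0143, in all of which *Shox2* was at 0 reads. The autopod cells of NXT0143 thus carried their tissue's markers, but at a summed mean of 631 CPM (*Msx1* the most abundant) against 3246 CPM in NXT0072 (*Hoxd13* the most abundant). No retained cell reached the required number of markers of muscle, epithelium, endothelium or macrophages, and of the 4 blood markers only *Hba-x* is in the count table, with no more than 0.0619 CPM on average in any group. *Myod1*, *Myog* and *Krt5* were at 0 reads in every cell, and in autopod NXT0143 all 5 epithelial markers were, as were *Myf5*, *Pecam1*, *Cdh5*, *Emcn*, *Aif1*, *Cx3cr1* and *Hba-x*. The highest summed mean of any group was 56.3 CPM for the 5 epithelial markers (zeugopod NXT0142, nearly all of it *Epcam*), 1.73 CPM for the 5 muscle markers (autopod NXT0072, mostly *Actc1*), 0.406 CPM for the 4 endothelial markers (zeugopod NXT0143, mostly *Pecam1*) and 0.781 CPM for the 3 macrophage markers (zeugopod NXT0142, mostly *Csf1r*).

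Other marker lists did differ between the groups. At least 3 of the 4 connective tissue markers (*Col1a1*, *Col3a1*, *Dcn*, *Lum*) were detected in 0 of 59 and 0 of 17 autopod cells of NXT0072 and NXT0143, but in 21 of 58 and 30 of 65 zeugopod cells of NXT0142 and NXT0143. Their summed mean was 316 and 223 CPM in the autopod and 2098 and 3421 CPM in the zeugopod in the same order, with *Col3a1* the most abundant in all 4 groups and *Lum* at 0 reads in autopod cells of NXT0143. At least 2 of 3 tendon markers (*Scx*, *Tnmd*, *Tnc*) were detected in 11 and 6 zeugopod cells of NXT0142 and NXT0143 and in no autopod cell, with summed means of 3.69, 27.5, 160 and 289 CPM in autopod NXT0072, autopod NXT0143, zeugopod NXT0142 and zeugopod NXT0143. *Tnmd* was at 0 reads in both autopod groups, *Tnc* in that of NXT0143, and *Scx* was the most abundant there, while *Tnc* was the most abundant in the zeugopod. At least 3 of 4 cell cycle markers (*Mki67*, *Top2a*, *Ccnb1*, *Cdk1*) were detected in 16 of 59, 2 of 17, 14 of 58 and 9 of 65 cells in the same order of groups, with summed means of 1318, 544, 983 and 665 CPM. The most abundant was *Mki67* in autopod cells of NXT0143 and *Top2a* in the other groups. The part of these cells in the differences of the 9 members was not tested.

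*Pdia3* (ENSMUSG00000027248, chr2:121413775-121438687 of GRCm38), the oxidoreductase that works with calnexin and calreticulin, had normalized levels from 0.319, its floor, to 6916 with a median of 0.957 in autopod cells of NXT0072, and from 0.319 to 6927 with a median of 487 in autopod cells of NXT0143. In the zeugopod its levels ran from 0.319 to 8019 with a median of 1325 in NXT0142, and from 0.319 to 5660 with a median of 1005 in NXT0143. Its 4 ranges thus overlapped almost wholly, while the median of autopod NXT0072 lay near the floor. *Pdia3* was detected in 26 of 59 autopod cells of NXT0072 (44.1%, 95% interval 31.2 to 57.6%), 13 of 17 of NXT0143 (76.5%, 50.1 to 93.2%), 54 of 58 zeugopod cells of NXT0142 (93.1%, 83.3 to 98.1%) and 60 of 65 of NXT0143 (92.3%, 82.95 to 97.5%). Among the cells that detected it, the median normalized level was 446 in autopod NXT0072, 1016 in autopod NXT0143, 1470 in zeugopod NXT0142 and 1164 in zeugopod NXT0143. Where *Pdia3* was detected at all, then, its median in autopod cells of NXT0143 lay close to those of the zeugopod, and that of NXT0072 below them.

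*Pdia4* (ENSMUSG00000025823, chr6:47796141-47813430), an isomerase found in complexes with *Hspa5*, had median normalized levels of 3.23, 7.27, 88.05 and 127.2 in autopod NXT0072, autopod NXT0143, zeugopod NXT0142 and zeugopod NXT0143, with highest cells between 3069 and 13410. The zeugopod medians stood above both autopod medians, while the ranges overlapped, and the quartiles of autopod NXT0143 lay far apart, at 0.808 and 1840. *Pdia6* (ENSMUSG00000020571, chr12:17266545-17284770), another isomerase, had medians of 18.3, 232, 682 and 598 in the same order, so that autopod NXT0143 lay between autopod NXT0072 and the zeugopod. *P4hb* (ENSMUSG00000025130, chr11:120560298-120573253), which serves both as an isomerase and in prolyl hydroxylation, had medians of 244, 1190, 1112 and 986 in that order. Its median was low in autopod NXT0072 and alike in the other 3 groups, and its highest cell of all, at 39983, was an autopod cell of NXT0072.

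**Figure D1:**
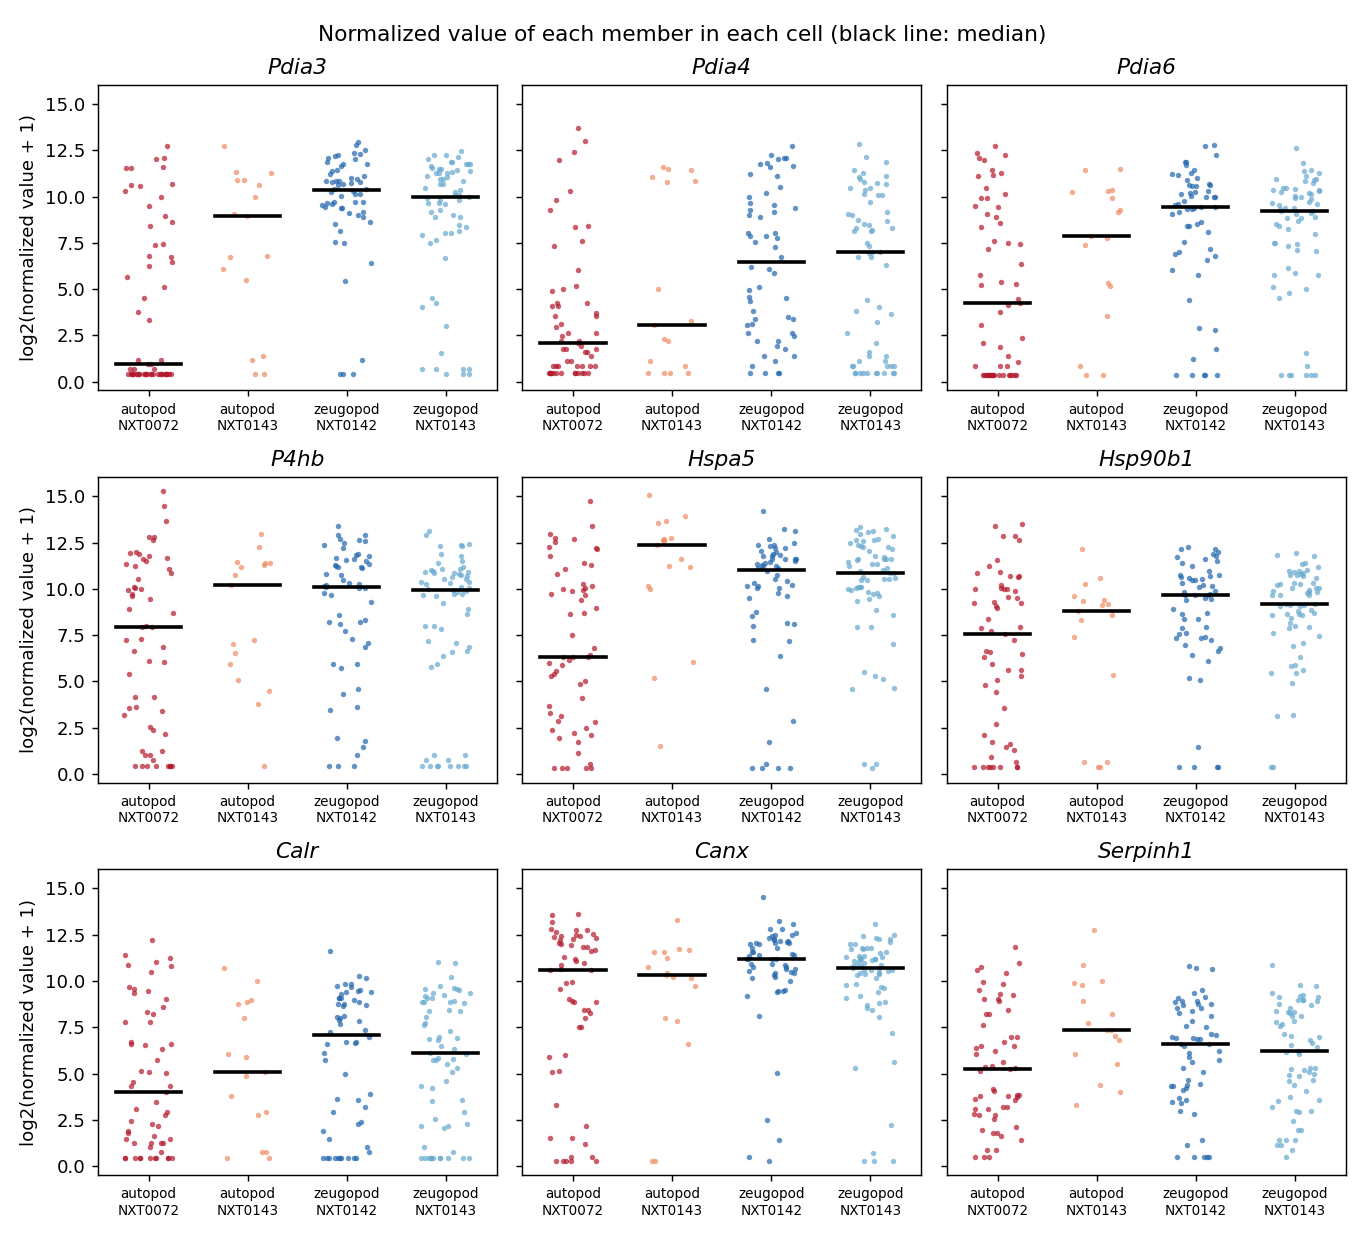
Normalized level of each of the 9 members in each retained cell, as log2(normalized value + 1) on the vertical axis, for autopod NXT0072 (59 cells), autopod NXT0143 (17), zeugopod NXT0142 (58) and zeugopod NXT0143 (65); each point is a cell and the black line is the median. Most genes show cells at the floor beside cells with high values in every group, and *Pdia3* has its median near the floor in autopod NXT0072 alone.

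*Hspa5* (ENSMUSG00000026864, chr2:34771970-34777547), the Hsp70 chaperone of the ER lumen, had normalized levels from 0.236 to 27060 with a median of 79.3 in autopod NXT0072 and from 1.89 to 34165 with a median of 5219 in autopod NXT0143. Its zeugopod levels ran from 0.236 to 18727 with a median of 2092 in NXT0142 and from 0.236 to 10517 with a median of 1878 in NXT0143. The ranges overlapped, yet the autopod held both the lowest and the highest of the 4 medians. *Hsp90b1* (ENSMUSG00000020048, chr10:86690209-86705509), the Hsp90 of the ER, had normalized levels from 0.293 to 11542 with a median of 190 in autopod NXT0072, from 0.293 to 4591 with a median of 443 in autopod NXT0143, from 0.293 to 4907 with a median of 798 in zeugopod NXT0142 and from 0.293 to 3900 with a median of 573 in zeugopod NXT0143. Its medians were lower in both autopod groups than in both zeugopod groups, with ranges that overlapped.

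*Calr* (ENSMUSG00000003814, chr8:84841850-84846934), the soluble lectin chaperone, had median normalized levels of 15.2, 33.2, 136 and 66.8 in autopod NXT0072, autopod NXT0143, zeugopod NXT0142 and zeugopod NXT0143. *Canx* (ENSMUSG00000020368, chr11:50293961-50325673), its membrane-bound relative, had medians of 1517, 1293, 2317 and 1684 in that order and was the steadiest of the 9 on this measure. Both lectins thus had their highest median in zeugopod NXT0142, with quartile ranges that overlapped in all 4 groups. *Serpinh1* (ENSMUSG00000070436, chr7:99345376-99353239) had normalized levels from 0.41 to 3589 with a median of 37.3 in autopod NXT0072, from 9.01 to 6855 with a median of 164 in autopod NXT0143, from 0.41 to 1803 with a median of 95.004 in zeugopod NXT0142 and from 0.41 to 1836 with a median of 73.3 in zeugopod NXT0143. Like *Hspa5* and *P4hb* it had its highest median in the autopod cells of NXT0143, and like *Hspa5* it was detected in all 17 of them, with ranges that overlapped.

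Because normalized values are per length, the order of the members can be read within each group. *Canx* and *Hspa5* had the highest medians of the 9 in autopod NXT0143 and in both zeugopod groups, and *Canx* and *P4hb* in autopod NXT0072, where *Hspa5* stood at place 4. *Pdia3* stood at place 9 in autopod NXT0072, at 4 in autopod NXT0143 and at 3 in both zeugopod groups. *Pdia4*, *Calr* and *Serpinh1* took the lowest 3 places in the zeugopod of both runs and in autopod NXT0143, with medians from 7.27 to 164. Quartile ranges of neighbours in the order overlapped throughout, so that adjacent places do not differ beyond the spread of the cells. The member with the highest normalized value in a cell was most often *Canx* in autopod NXT0072 (20 of 59 cells) and zeugopod NXT0142 (19 of 58), and *Hspa5* in autopod NXT0143 (10 of 17) and zeugopod NXT0143 (20 of 65).

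Counted by cell, a median of 7 of the 9 members was detected in autopod NXT0072, 8 in autopod NXT0143, 9 in zeugopod NXT0142 and 8 in zeugopod NXT0143. All 9 were detected in 10 of 59, 5 of 17, 31 of 58 and 32 of 65 cells in that order, and fewer than 5 in 7, 1, 3 and 0 cells. The 9 genes together took a median of 0.608% of the reads on genes in autopod NXT0072, 1.08% in autopod NXT0143, 1.16% in zeugopod NXT0142 and 1.41% in zeugopod NXT0143. By these medians the members detected were fewest, and their share of reads smallest, in the autopod cells of NXT0072. The median number of genes with any read was lowest there too, at 3528, and highest in zeugopod NXT0142, at 4283.5. The share of all genes tested that a cell detected was not taken, so these counts are not read as a result about the members. In the 56, 16, 56 and 63 cells with enough reads to be thinned to 500000, the medians were 6, 8, 8 and 8 members.

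**Figure D2:**
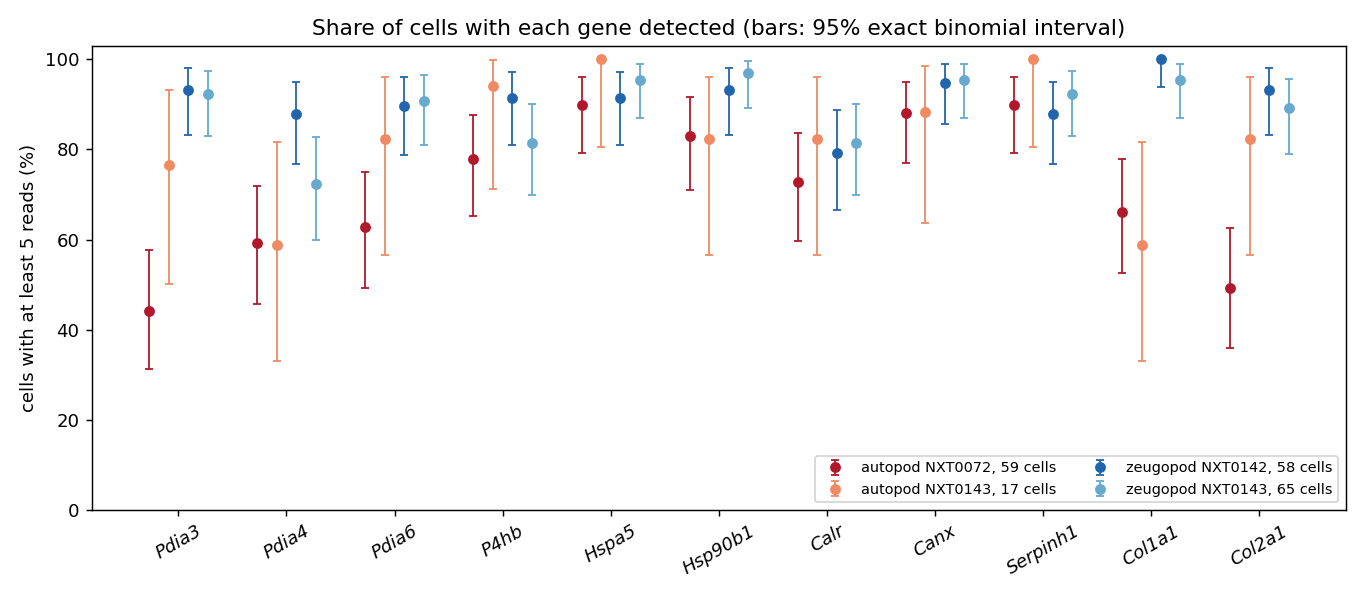
Share of retained cells with at least 5 reads of each member, of *Col1a1* and of *Col2a1*, in percent, in the 4 groups of tissue and run; bars are 95% exact binomial intervals, for counting error only. *Pdia3* ranges from 44.1% in autopod NXT0072 to 93.1% in zeugopod NXT0142, and *Hspa5* and *Serpinh1* were detected in all 17 autopod cells of NXT0143.

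Within NXT0143 both tissues were sequenced in 1 run, and among retained cells members differed in both directions. Differences are between means of log2(normalized value + 1), autopod minus zeugopod, and a gene was counted as lower or higher past 1, or 2-fold. Of the 9 members 2 were lower in the autopod by this measure, where 9.21% of the 4898 genes tested were, and 1 was higher, where 18.4% were. A gene was tested if 25% or more of the cells of 1 tissue detected it, which holds for all 9 members. The median difference of the members was -0.63, and that of all genes tested was 0.18. On CPM, 5 members were lower, where 14.7% of genes tested were, and 1 was higher, where 15.9% were, with a median of -1.34 against -0.02 for all genes tested, so the change of scale alone moved the centre of all genes from 0.18 to -0.02. The members' count also depends on how cells are averaged: as the log2 ratio of mean values, on which cells near the floor weigh little, no member was lower by 1. With the cells that the authors left out added, on CPM, 8 of 9 were lower, and without chondrogenic cells 5 were. No share of all genes tested was taken by that ratio or under these settings. These counts are therefore not read as a result about the members.

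By role, 3 of the 4 isomerases had negative differences in NXT0143. *Pdia3* differed by -1.43 (autopod mean log2 7.31, zeugopod 8.74), with 10 of 17 autopod cells below the zeugopod median and 16 of 17 within the zeugopod range. Of all genes tested, 3.67% had a difference as low or lower. The contrast that chose *Pdia3* holds these cells too, so this share is no separate result. *Pdia4* differed by -0.94, though by the log2 ratio of means it lay above 0 at 0.27, and *Pdia6* by -0.89, whereas *P4hb* differed by 0.20, which on CPM became -0.31 and with a pseudocount of 10 also fell below 0.

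The 2 chaperones went opposite ways. *Hsp90b1* had the lowest difference of the 9, -1.69 (autopod mean log2 7.06, zeugopod 8.75), with 10 of 17 autopod cells below the zeugopod median. *Hspa5* differed by 0.83 (10.95 against 10.12), with 5 of 17 autopod cells below the zeugopod median. Among the lectins *Canx* differed by -0.63 and *Calr* by -0.42, with *Calr* turning positive without cells under 1000000 reads or without cells that carry chondrogenic markers. *Serpinh1* had the highest difference of the 9, 1.70 (7.64 against 5.94), with 15 of 17 autopod cells within the zeugopod range, and it stayed between 1.15 and 2.68 over 10 other settings. Its place was 286 from the highest of the 4898 genes tested. The collagen chaperone was therefore higher on average in autopod than in zeugopod cells of the run they share, in contrast with *Pdia3* and *Hsp90b1*. Over the same 10 settings *Pdia3* ran from -2.00 to -0.41 and *Hsp90b1* from -2.28 to -0.37.

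Larger gaps were seen between autopod NXT0072 and zeugopod NXT0142, which differ in tissue and run at once. There 8 of the 9 members were lower in the autopod, against 24.3% of genes tested, and none was higher, against 6.64%. The median difference was -1.97 for the members and -0.34 for all genes tested (-1.94 and -0.41 on CPM). *Pdia3* differed by -5.60, at place 2 from the lowest of 4898 genes, *Pdia6* by -3.25, *Pdia4* by -2.89 and *P4hb* by -1.74. The isomerases thus span a wide range, with *Pdia3* at its end. *Pdia3* was chosen by a contrast that holds these same cells, so its place is no separate result. *Hspa5* differed by -2.63, *Hsp90b1* by -1.97, *Canx* by -1.90, *Calr* by -1.22 and *Serpinh1* by -0.66. By the log2 ratio of mean values only *Pdia3* was still lower by 1, at -1.70, and *P4hb*, *Calr* and *Serpinh1* had values above 0. The highest autopod cells of NXT0072 stood at 39983, 4704 and 3589 for *P4hb*, *Calr* and *Serpinh1*, against 10894, 3141 and 1803 in zeugopod NXT0142. The share of all genes tested that were lower by this ratio was not taken.

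Over all cells, the contrast that chose the members through *Pdia3*, 7 of the 9 were lower in the autopod, beside 13.4% of genes tested, and none was higher, beside 6.06%. *Pdia3* differed by -4.39 there, at place 4 from the lowest, and *Serpinh1* by -0.10, a value that changed sign under 4 of 10 settings. By the log2 ratio of mean values 1 member was lower by 1, and *P4hb*, *Hspa5*, *Hsp90b1* and *Calr* lay above 0 as well. Here too no share of all genes tested was taken by this ratio. The median of the members was -1.93 and that of all genes tested -0.12 (-2.19 and -0.29 on CPM). These 3 comparisons share cells.

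Runs were compared within each tissue as well. In the zeugopod no member was lower by 1 in NXT0143 than in NXT0142, against 15.1% of genes tested, and none was higher, against 1.1%. The median of the members was -0.26 and that of all genes tested -0.36. On CPM the medians were 0.21 and -0.14, with *Pdia4*, *Pdia6*, *Calr* and *Serpinh1* changing sign and *Hspa5* reaching 1.30. Without chondrogenic cells 4 members were lower by 1 in NXT0143, a setting for which no share of all genes tested was taken. With all cells the members lay within 1 of 0 in this comparison, with *Pdia3* at -0.93 and *Hspa5* at 0.60 (below 0 by medians over cells and without chondrogenic cells) as the outermost values.

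In the autopod the runs stood far apart. Of the members 6 were higher by 1 in NXT0143 than in NXT0072, against 22.2% of genes tested, and none was lower, against 11.8%. The median of the members was 1.61 and that of all genes tested 0.14 (1.51 and 0.25 on CPM). *Hspa5* differed by 4.05, *Pdia3* by 3.25, *Serpinh1* by 2.26 and *Pdia4* by 1.61, while *Pdia6* at 2.09 and *P4hb* at 1.43 fell below 0 by the log2 ratio of means. *Canx*, *Calr* and *Hsp90b1* differed by 0.55, 0.57 and 0.36, each likewise below 0 by that ratio. The difference of *Pdia3* between the 2 autopod groups was thus larger than its difference between the tissues within NXT0143.

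**Figure D3:**
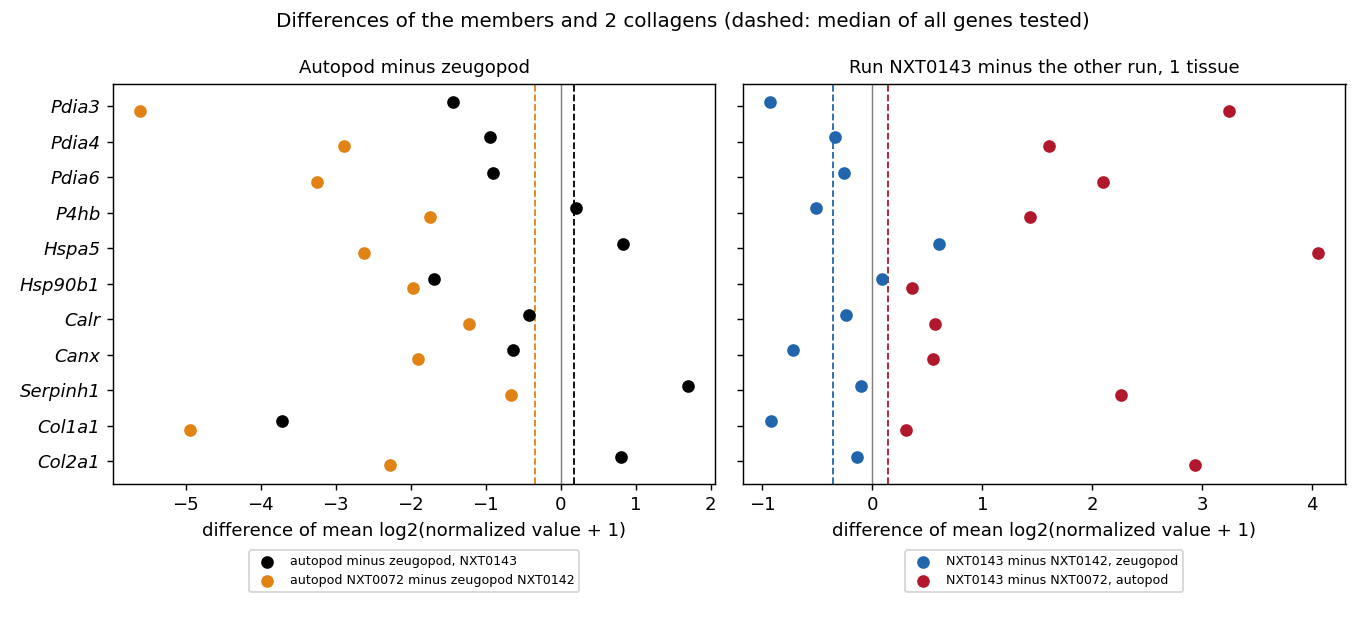
Difference of mean log2(normalized value + 1) for the 9 members, *Col1a1* and Col2a1: on the left autopod minus zeugopod within NXT0143 (black) and autopod NXT0072 minus zeugopod NXT0142 (orange), on the right NXT0143 minus the other run within the zeugopod (blue) and within the autopod (red); dashed lines are medians of the 4898 genes tested. Within NXT0143 the members lie on both sides of 0, from -1.69 to 1.70 (*P4hb*, at 0.20, falls below 0 on CPM and with a pseudocount of 10), and between NXT0072 and NXT0142 they lie from -5.60 to -0.66.

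The 2 collagens were set beside their folding enzymes. *Col1a1* (ENSMUSG00000001506, chr11:94936224-94953042) had normalized levels from 0.151 to 259 with a median of 2.42 in autopod NXT0072, from 0.151 to 124.4 with a median of 2.87 in autopod NXT0143, from 0.302 to 1754 with a median of 275 in zeugopod NXT0142 and from 0.151 to 2598 with a median of 180 in zeugopod NXT0143. Both autopod groups were low and both zeugopod groups high, and all 17 autopod cells of NXT0143 lay below the zeugopod median of that run. Its difference within NXT0143 was -3.72, at place 7 from the lowest of 4898 genes, and between NXT0072 and NXT0142 it was -4.94. *Col2a1* (ENSMUSG00000022483, chr15:97975602-98004695) had medians of 1.16, 195, 36.6 and 32.2 in autopod NXT0072, autopod NXT0143, zeugopod NXT0142 and zeugopod NXT0143, with highest cells between 1955 and 4907. Its difference was 0.80 within NXT0143 and -2.27 between NXT0072 and NXT0142. The sign of the *Col2a1* difference thus matched those of *Hspa5*, *Serpinh1* and (except on CPM and with a pseudocount of 10) *P4hb* in the first comparison and of all 9 members in the second (by the log2 ratio of means *P4hb*, *Calr* and *Serpinh1* lay above 0 there, and the mean of *Col2a1* was 256 in autopod NXT0072 and 252 in zeugopod NXT0142), and the *Col1a1* difference was more negative than that of any member within NXT0143.

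Across the cells of 1 tissue in 1 run, which share the run and differ in depth, members were weakly related to either collagen on CPM. Spearman's rho was taken over 59, 17, 58 and 65 cells in autopod NXT0072, autopod NXT0143, zeugopod NXT0142 and zeugopod NXT0143. The median rho of the 9 members with *Col1a1* was -0.00206, -0.12, 0.157 and 0.0246 in that order, and the median over all other genes tested was 0.02, -0.0144, 0.0382 and 0.0268. The highest was *Hspa5* in zeugopod NXT0142, at 0.321, where 7 of 9 members had a positive rho, and the lowest was *P4hb* in autopod NXT0143, at -0.422 over 17 cells. *Pdia3* had a rho with *Col1a1* of -0.00206, -0.0761, 0.172 and 0.0246. Within a tissue and run, then, cells with more *Col1a1* were not in general the cells with more *Pdia3*. Of the 59 autopod cells of NXT0072, 20 detected both genes, 6 *Pdia3* alone, 19 *Col1a1* alone and 14 neither.

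With *Col2a1* the median rho of the members was -0.129 in autopod NXT0072, -0.186 in autopod NXT0143, -0.212 in zeugopod NXT0142 and 0.0747 in zeugopod NXT0143, where the median of all other genes was -0.104, -0.099, -0.0959 and -0.0232. *P4hb* had the highest rho with *Col2a1* of the 9 in each of the 4 groups, at 0.171, 0.211, -0.114 and 0.317. *Serpinh1* had rho of -0.129, -0.225, -0.362 and 0.0303, the lowest of the 9 in zeugopod NXT0142. In that group all 9 members had a negative rho with *Col2a1*, and in zeugopod NXT0143 7 of 9 had a positive value, but without chondrogenic cells the median of the latter group was -0.000925. Values this near 0 are weak in counts with many zeros. Given the number of genes detected per cell, the median with *Col2a1* in autopod NXT0072 became 0.0527, and on normalized values, where all genes of a cell share 1 size factor, the median with *Col1a1* was 0.185 in autopod NXT0072, 0.0418 in autopod NXT0143, 0.332 in zeugopod NXT0142 and 0.248 in zeugopod NXT0143.

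Among themselves the members were more often positively related. Over their 36 pairs the median rho was 0.18 in autopod NXT0072, 0.1 in autopod NXT0143, 0.202 in zeugopod NXT0142 and 0.189 in zeugopod NXT0143, and the median of the members with the 4889 other genes tested was 0.103, 0.0597, 0.0596 and 0.0477. In the order of groups given, 29, 22, 34 and 34 of 36 pairs were above 0. The share above 0 among pairs of members with other genes was not taken, and the medians of those pairs were positive as well. The highest pair was *Hsp90b1* and *Calr* in autopod NXT0072, at 0.618, which in zeugopod NXT0143 was the lowest pair, at -0.114. *Pdia3* and *Pdia6* had 0.487 in autopod NXT0072 and 0.267 in zeugopod NXT0143, and *Hspa5* and *Calr* had 0.438 in zeugopod NXT0143. In autopod NXT0143 *Hspa5* and *Serpinh1*, both high there, had the lowest rho of the 36 pairs, at -0.417 over 17 cells.

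Members were also related to how many genes a cell shows. The median rho of the 9 members with the number of genes detected was 0.416 in autopod NXT0072, 0.226 in autopod NXT0143, 0.296 in zeugopod NXT0142 and 0.269 in zeugopod NXT0143, and *Pdia3* reached 0.652 in autopod NXT0072. Given the number of genes detected, the median over the pairs was 0.0497 in autopod NXT0072, 0.0107 in autopod NXT0143, 0.131 in zeugopod NXT0142 and 0.133 in zeugopod NXT0143. On normalized values the medians over pairs were 0.406, 0.311, 0.347 and 0.424. The part of cell quality in these relations was not tested beyond that.

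**Figure D4:**
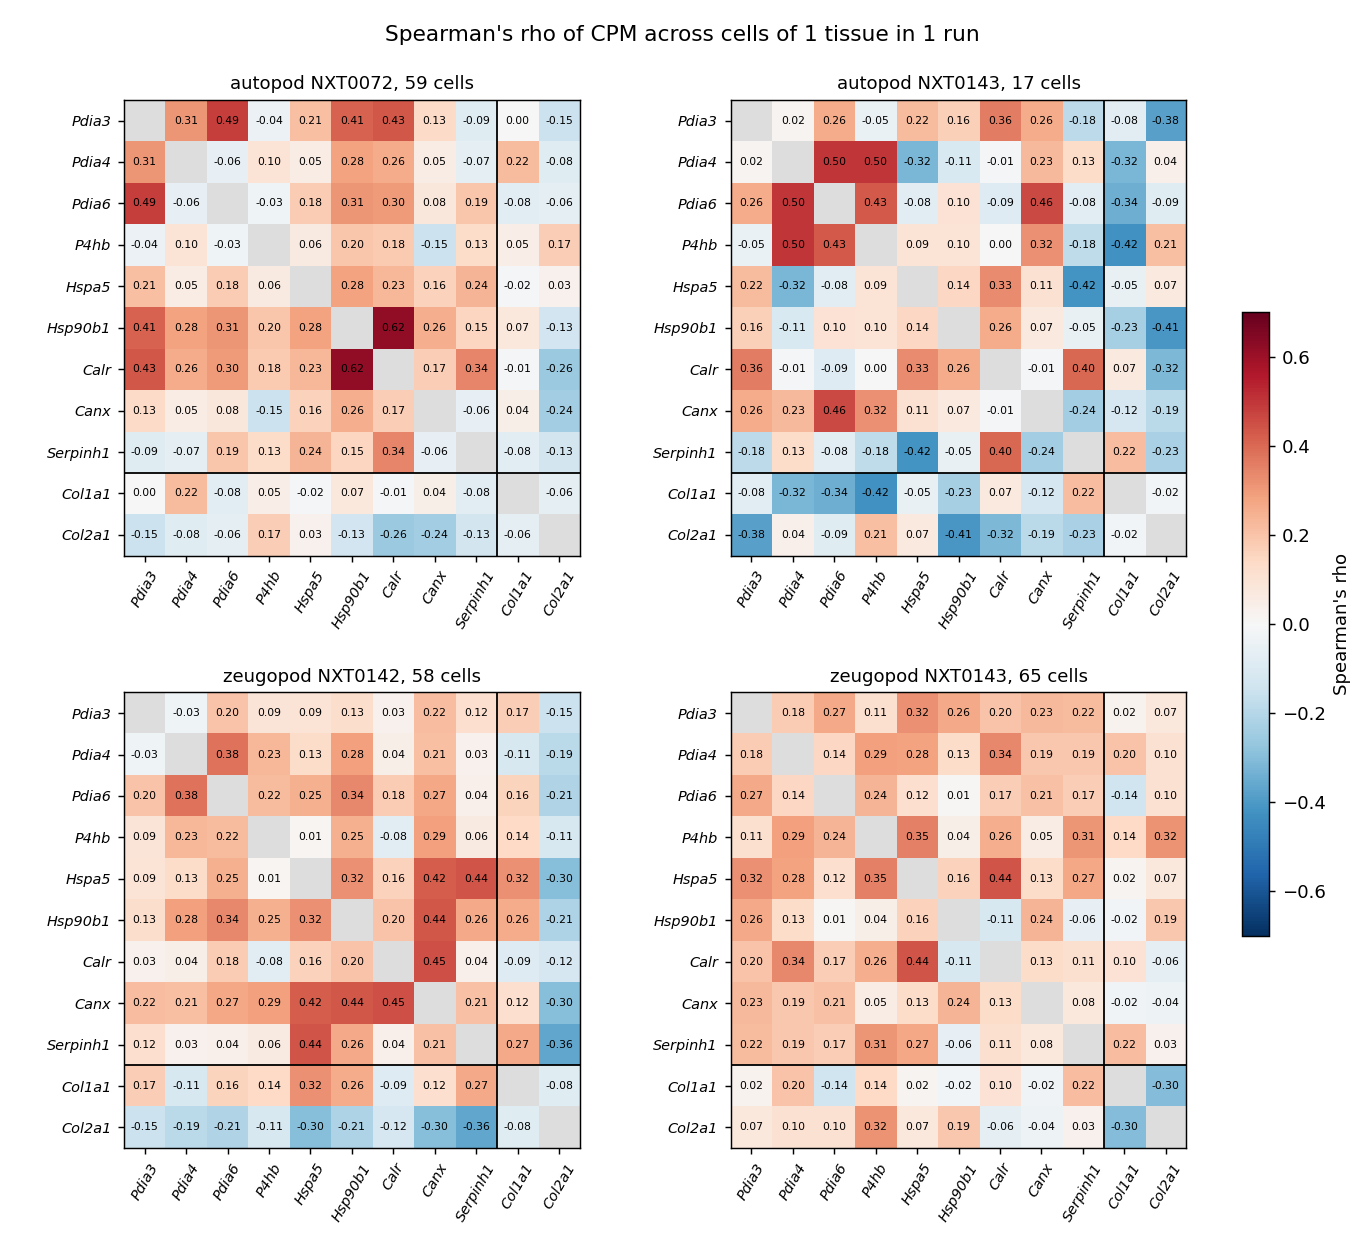
Spearman's rho of CPM between the 9 members, *Col1a1* and *Col2a1* across the cells of each tissue and run; red is positive, blue negative, and the black lines set the 2 collagens apart. Member pairs are mostly positive, up to 0.62 for *Hsp90b1* and *Calr* in autopod NXT0072, while values with the collagens have both signs, from -0.42 for *P4hb* with *Col1a1* in autopod NXT0143 to 0.32 for *Hspa5* with *Col1a1* in zeugopod NXT0142.

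The genes most like the members were ranked by mean rho with the 9 members over the 3 groups of more than 50 cells. At the top of the 4889 genes was *RP23-18G14.1*, at 0.323, a gene annotated as a processed pseudogene, followed by *Calr-ps* at 0.272 and *1810014B01Rik* at 0.259. *Calr-ps* is a pseudogene of *Calr* and 12.3% of its 31-base words occur in *Calr* transcripts, and *1810014B01Rik* lies over *Hsp90b1* on the other strand, with 4598 bases of overlap and 12.7% of its words in *Hsp90b1* transcripts read in reverse. Reads of these members may have been counted on both genes, which was not tested. They were the only genes among 4886 tested with a transcript model for which that share was at least 5%. Next came *Hspd1* (0.238), *Manf* (0.232), *Eif3a* (0.229), *Atxn7l3* (0.228), *Txndc5* (0.227), *Rpn1* (0.225) and *Wdr81* (0.224). *Manf*, *Txndc5* and *Rpn1* are themselves ER genes, for a secreted chaperone cofactor, an isomerase and an oligosaccharyl transferase subunit. For comparison the mean rho of *Hsp90b1* and of *Pdia3* with the other 8 members was 0.225 and 0.187, that of *Col1a1* with the 9 members was 0.0725, and that of *Col2a1* was -0.0752, at place 4866 of 4889.

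Other annotated genes overlap the members little, apart from *Hsp90b1*. *Pdia3* shares 18 bases with *Catsper2* and *Pdia6* shares 50 bases with *Atp6v1c2*, each on the other strand, and the microRNA gene *Mir704* lies within *Pdia4*. *Catsper2* had a mean of 48.1 reads per retained cell where *Pdia3* had 3816. *P4hb*, *Hspa5*, *Calr*, *Canx*, *Serpinh1* and both collagens overlap no other annotated gene.

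Promoter windows were described as well. The ER stress response element of textbooks is written CCAAT, then 9 bases of any kind (N), then CCACG, and it was searched on both strands of windows from 250 bases before to 50 bases after gene starts, taken from RefSeq for GRCm38.p6. All 9 members have such a window, and 5 of them hold the element. It is held by 39 of 32851 promoter windows (0.119%) and 10 of 4824 windows of genes tested (0.207%), the members included. The members were named as ER folding factors and the element belongs to the ER stress response, so its presence in 5 of 9 is no separate result. The 5 members are *Pdia6*, *Hspa5*, *Hsp90b1* (with 2 copies), *Calr* and *Canx*, and those without it are *Pdia3*, *Pdia4*, *P4hb* and *Serpinh1*. Its 2 ends alone are common, CCAAT in 37.4% and CCACG in 32.8% of all windows. The 5 windows are shown because they are where members with different behaviour share letters; capitals mark the element, which on the opposite strand reads as its reverse complement, and each sequence is given along the gene's own strand. They lie at chr12:17266339-17266638 (*Pdia6*, + strand), chr2:34771840-34772139 (*Hspa5*, + strand), chr10:86705395-86705694 (*Hsp90b1*, - strand), chr8:84846882-84847181 (*Calr*, - strand) and chr11:50325624-50325923 (*Canx*, - strand).
Pdia6: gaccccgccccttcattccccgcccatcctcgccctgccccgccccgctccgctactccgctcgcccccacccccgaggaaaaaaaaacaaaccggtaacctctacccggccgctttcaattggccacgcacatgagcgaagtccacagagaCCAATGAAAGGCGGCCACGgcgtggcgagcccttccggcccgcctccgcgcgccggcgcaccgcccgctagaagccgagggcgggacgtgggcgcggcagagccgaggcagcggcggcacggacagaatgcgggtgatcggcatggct
Hspa5: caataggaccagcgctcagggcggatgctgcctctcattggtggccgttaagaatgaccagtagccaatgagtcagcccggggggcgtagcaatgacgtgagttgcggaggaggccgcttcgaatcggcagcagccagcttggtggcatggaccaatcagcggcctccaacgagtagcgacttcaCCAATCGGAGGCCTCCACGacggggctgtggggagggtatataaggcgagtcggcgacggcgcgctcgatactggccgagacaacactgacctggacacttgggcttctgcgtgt
Hsp90b1: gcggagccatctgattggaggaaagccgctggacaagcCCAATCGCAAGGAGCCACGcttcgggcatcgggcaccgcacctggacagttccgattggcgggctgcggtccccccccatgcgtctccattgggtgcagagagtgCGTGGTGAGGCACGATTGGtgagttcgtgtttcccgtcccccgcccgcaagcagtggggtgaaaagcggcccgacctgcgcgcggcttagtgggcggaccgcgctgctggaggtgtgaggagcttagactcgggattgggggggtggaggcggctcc
Calr: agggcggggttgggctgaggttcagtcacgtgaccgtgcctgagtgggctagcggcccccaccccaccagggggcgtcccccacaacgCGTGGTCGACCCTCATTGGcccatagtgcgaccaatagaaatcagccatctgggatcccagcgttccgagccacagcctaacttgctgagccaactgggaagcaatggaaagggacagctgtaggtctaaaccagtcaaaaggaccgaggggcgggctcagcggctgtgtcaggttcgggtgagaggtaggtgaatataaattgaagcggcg
Canx: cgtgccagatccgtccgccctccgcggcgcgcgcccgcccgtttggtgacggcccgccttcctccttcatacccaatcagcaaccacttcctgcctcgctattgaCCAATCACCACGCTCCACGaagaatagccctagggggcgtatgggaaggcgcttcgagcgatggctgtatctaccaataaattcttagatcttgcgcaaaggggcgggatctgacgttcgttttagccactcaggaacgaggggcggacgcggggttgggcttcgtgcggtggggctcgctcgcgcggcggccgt
The element ends between 46 bases (*Hspa5*) and 193 bases (*Hsp90b1*) before the start of these genes, and lies on the opposite strand in *Calr* and in the copy of *Hsp90b1* nearer the start. Among the lists of other genes described next, only *Creld2*, *Dnajc3* and *Syvn1* hold it, and none of the 7 windows of interstitial collagens or the 11 windows of cartilage genes does. *Col1a1* and *Col2a1* have no window in the table used. Members with the element and members without it are both found among those that were lower within NXT0143, *Hsp90b1* and *Pdia3*. A match of letters is a description, and binding was not measured.

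Other genes of the secretory pathway were described by 12 lists, with counts within NXT0143 to be read against 9.21% lower and 18.4% higher among all genes tested and medians against 0.18. Of 9 other disulfide isomerases and ER oxidases tested, 0 were lower and 1 was higher, with a median difference of -0.03. The highest was *Txndc11*, at 1.33, followed by *Dnajc10* at 0.70, while the most abundant, *Txndc12* and *Txndc5*, had -0.18 and -0.03. Of 10 other ER chaperones and co-chaperones, 2 were lower and 0 higher, with a median of -0.22 (4, 0 and -0.40 on CPM). Those were *Fkbp2* at -1.48 and *Fkbp9* at -1.35, both prolyl isomerases, and the most abundant were *Ppib*, a prolyl isomerase of collagen, at -0.58 and *Creld2* at 0.35 (-0.01 on CPM). Of 5 genes that trim glycans for the calnexin and calreticulin cycle none passed 1 either way, with a median of 0.38. *Prkcsh*, a glucosidase subunit and among the most abundant, had 0.73, *Edem3* had 0.53 and *Ganab*, the other abundant gene, had 0.34.

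Collagen modification and export genes were mixed, with 2 of 13 lower, 3 higher and a median of 0.02 (3, 2 and -0.24 on CPM). *Plod2*, a lysyl hydroxylase, had the highest difference at 2.07 and *Fkbp7* the lowest at -1.36, while the abundant *Ppib* and *Sparc* had -0.58 and 0.57. Of 9 interstitial collagens 6 were lower and 0 higher, with a median of -1.33, led by *Col3a1* at -4.19 and *Col1a1* at -3.72, which were also the most abundant. Of 6 cartilage genes 0 were lower and 2 were higher, with a median of 0.89. These were *Col9a1* at 2.30 and *Col9a3* at 1.69, and *Col2a1*, with *Col9a1* the most abundant, had 0.80. Between NXT0072 and NXT0142 the cartilage genes had a median of -0.78 with 2 lower and 2 higher. *Serpinh1*, which serves both kinds of collagen, had 1.70 within NXT0143.

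Further along the pathway, 9 of 23 translocon, signal peptidase and oligosaccharyl transferase genes were lower and 0 higher, with a median of -0.66. *Ddost* had -2.90 and *Ssr4* -2.66, and the most abundant, *Ssr2* and *Ssr3*, had -0.12 and -0.47. Their median was near that of the members, -0.63, on the normalized scale, but on CPM the 2 medians were -0.95 and -1.34. Both KDEL receptors tested stayed within 1, *Kdelr2* at -0.98 (-1.63 on CPM) and *Kdelr1* at 0.06 (-0.14 on CPM), with a median of -0.46. Of 16 Golgi and COP vesicle genes 2 were lower and 1 was higher, with a median of 0.23 (-0.13 on CPM). *Copb2* had -1.56, *Sec24b* 2.27, and the most abundant, *Arf4* and *Copb1*, had 0.76 and -0.79.

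**Figure D5:**
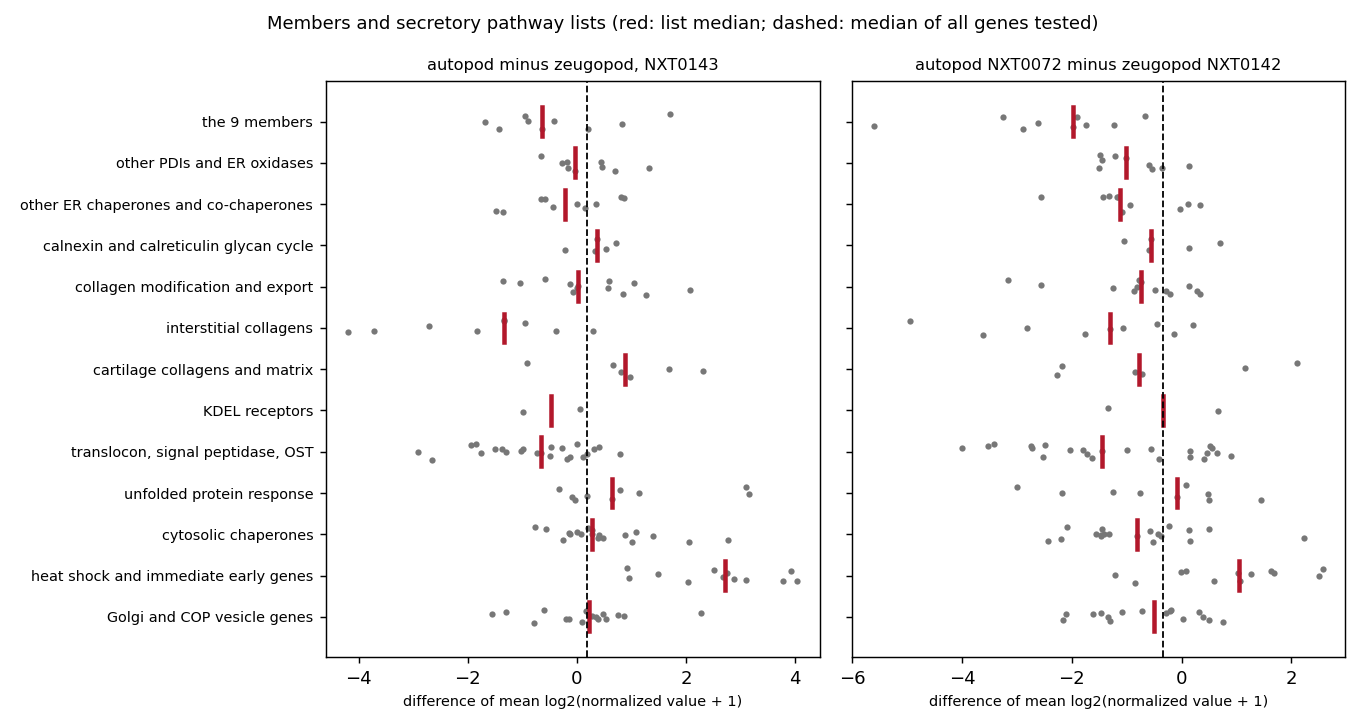
Difference of mean log2(normalized value + 1), autopod minus zeugopod, of each gene (grey points) in the members and the 12 lists, within NXT0143 on the left and between autopod NXT0072 and zeugopod NXT0142 on the right; red bars are list medians and dashed lines the median of all genes tested (0.18 and -0.34). Within NXT0143 the interstitial collagens have the lowest median, -1.33, and the heat shock and immediate early genes the highest, 2.72.

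Genes of stress responses were set beside the members. Of 9 genes of the unfolded protein response 0 were lower and 3 were higher in the autopod within NXT0143, with a median of 0.64. *Ppp1r15a* had 3.15 and *Atf3* 3.11, and the most abundant, *Atf4* and *Herpud1*, had 0.19 and 1.14. The sensors *Atf6*, *Ern1* and *Eif2ak3* and the factor *Ddit3* were below the filter. Of 19 cytosolic chaperones 0 were lower and 5 higher, with a median of 0.28 (1 and 3 on CPM, with a median of 0.00248), near those of all genes, led by *Dnaja1* at 2.77 and *Dnaja2* at 2.05, while the most abundant, *Cct5* and *Cct8*, had 0.89 and 0.47. Of 12 heat shock and immediate early genes 10 were higher and 0 lower, with a median of 2.72. *Ier2* had 4.04 and *Egr1* 3.92, and *Fos*, with *Egr1* the most abundant, had 3.78.

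*Hspa5* was the member most related to the heat shock and immediate early genes, and to those of the unfolded protein response, across cells in 3 of the 4 groups. Its rho with the mean of the heat shock and immediate early list was 0.574 in autopod NXT0143 (17 cells), 0.485 in zeugopod NXT0143 (65 cells), 0.288 in zeugopod NXT0142 (58 cells) and 0.0473 in autopod NXT0072 (59 cells), the highest of the 9 members in the first 3 of these groups. *Serpinh1* had -0.289, 0.162, 0.133 and -0.298 in the same order. With the unfolded protein response list *Hspa5* had 0.402, 0.483, 0.317 and 0.263. Over the 17 autopod cells of NXT0143, then, *Hspa5* had a positive rho with both lists, and *Serpinh1* a negative one, with -0.348 for the unfolded protein response list. *Atf3* is in both lists, and the rho of all other genes with them was not taken. The part of cell handling in these values was not tested.

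Between NXT0072 and NXT0142 several lists were lower in the autopod more widely, with 5 of 9 other isomerases and oxidases, 6 of 10 other ER chaperones, 12 of 23 translocon, peptidase and transferase genes and 9 of 19 cytosolic chaperones lower, beside 24.3% of all genes tested. Their medians were -1.01, -1.12, -1.45 and -0.81, against -1.97 for the members and -0.34 for all genes. So were 7 of 16 Golgi and COP vesicle genes. Of 9 unfolded protein response genes 3 were lower and 1 was higher, with a median of -0.08, above that of all genes. In contrast 7 of 12 heat shock and immediate early genes were higher there and 1 lower (median 1.05), and 6 of 9 interstitial collagens were lower, as within NXT0143. Between the autopod runs the other isomerases and oxidases had a median of 1.23 with 7 of 9 higher in NXT0143, and the collagen modification genes 1.52 with 8 of 13 higher, beside 1.61 for the members and 22.2% of all genes higher. The other ER chaperones had a median of 0.42 with 3 of 10 higher, and the heat shock and immediate early genes, with the highest median of all lists, had 2.25 with 9 of 12 higher.

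Cells with at least 3 of 5 chondrogenic markers (*Sox9*, *Col2a1*, *Acan*, *Col9a1*, *Matn1*) were set against the other cells of their tissue and run. There were 27 such cells of 59 in autopod NXT0072, 8 of 17 in autopod NXT0143, 19 of 58 in zeugopod NXT0142 and 19 of 65 in zeugopod NXT0143. The summed mean of the markers was 4135, 2652, 1924 and 1988 CPM in that order, with *Sox9* the most abundant except in zeugopod NXT0143, where *Col2a1* was, and with *Matn1* at 0 reads in the first 3 groups. The number of members with a higher median in chondrogenic cells than in the others was 0, 3, 0 and 5 of 9. The share of all genes tested with a higher median in them was not taken. With 4 markers required, the number of members in autopod NXT0072 was 8 instead of 0, and on CPM that in autopod NXT0143 was 6 instead of 3. In autopod NXT0072 *Acan* was detected in 6 cells and *Matn1* in none, so at most 6 cells held 4 markers.

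In autopod NXT0072 the chondrogenic cells had a median *Pdia3* level of 0.319, its floor, against 15.8 in other cells, a median *Canx* level of 460 against 2847, and a median *Serpinh1* level of 13.1 against 84.6. *P4hb* (244 against 286) and *Hspa5* (78.4 against 98.2) had the smallest gaps in that group. In zeugopod NXT0143 the chondrogenic cells had a median *Pdia3* level of 1293 against 981, a median *Canx* level of 1550 against 1778 and a median *Serpinh1* level of 73.3 against 79.9. The largest gaps there were those of *P4hb* (1918 against 825) and *Hspa5* (3169 against 1501), and *Pdia4* and *Calr* were lower, like *Canx* and *Serpinh1*. The ranges of the 2 kinds of cells overlapped for each of these genes. Genes detected differed as well, with a median of 3112 in chondrogenic and 3760.5 in other cells of autopod NXT0072, and 3882 against 3718 in zeugopod NXT0143. Under the rule of 3 markers, cells rich in cartilage transcripts thus had lower medians of all 9 members in NXT0072 and NXT0142 and a mixture in NXT0143. Whether the members differ in this from other genes was not tested, nor was the part of genes detected.

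Within autopod NXT0072, members were also read by the combinations of *Hoxd* genes on which the study is built, with a *Hoxd* gene taken as on at a normalized value of 5 or more if it also reached 5% of the highest *Hoxd* gene in that cell. The 4 combinations with more than 5 cells hold 44 of the 59 cells. *Pdia3* had a median level of 0.319 in 16 cells with *Hoxd13* alone (range 0.319 to 4226), 1.28 in 11 cells with *Hoxd11* and *Hoxd13* (0.319 to 1285), 0.957 in 9 cells with *Hoxd10* and *Hoxd13* (0.319 to 4363) and 553 in 8 cells with *Hoxd10*, *Hoxd11*, *Hoxd12* and *Hoxd13* (75.9 to 6916). It was detected in 3, 5, 4 and 8 of these cells. *Hsp90b1* had medians of 67.4, 47.8, 246 and 4375 in that order, with all 8 cells of the last combination at 1043 or more.

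The 8 cells with 4 *Hoxd* genes on were therefore high for *Pdia3* and *Hsp90b1*, with 8 or 9 members detected in each. *Pdia4* had a median of 32.1 in them, and *Pdia4*, *P4hb* and *Hspa5* each had a cell at the floor. No value over all genes was set beside these levels. The 8 cells also had the most genes detected, with a median of 5564 against 3139.5, 3133 and 4202 in the other 3 combinations, and the highest median number of reads. The median over the 9 members of their log2 median level was 5.37, 3.12, 5.75 and 10.79 in the same order of combinations, a span of 7.67 that was 5.23 on CPM and 5.52 on CPM after thinning to 500000 reads. The part of depth in this span was not tested beyond that.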

How the data were processed

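Single cells were sequenced from the autopod and zeugopod of pooled forelimbs. The authors mapped reads to mm10 with Bowtie2 and deposited counts, the reads on each gene in each cell. They also deposited normalized signal for retained cells: reads divided by spike-in size factors (scran), plus 1, divided by gene length. From these, differences of mean log2(value + 1), CPM, Spearman's rho and exact binomial intervals were computed with Python 3.11.15, numpy 2.4.6, pandas 2.3.3, SciPy 1.17.1 and Matplotlib 3.10.9. The pseudocount was 1 and thinning used seed 42. The code was first run on simulated tables whose differences were known. Gene positions come from GENCODE M21 for GRCm38 and promoter windows from RefSeq. *Hoxd* combinations follow the study's definition.

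Named genes are the 9 members, *Col1a1*, *Col2a1*, the 2 genes of each list with the largest difference within NXT0143 and its 2 most abundant, and the 10 genes most like the members. The members and lists were chosen with earlier results of these data known. Alternatives were CPM, thinning, CPM without the 50 genes of most reads, pseudocounts of 0.1 and 10, medians over cells, the log2 ratio of means, leaving out cells under 1000000 reads or chondrogenic cells, subtracting the median of all genes, no gene filter, all cells of the count table, normalized values, partial and Pearson correlations, detection at 1 or 20 reads, and 2 or 4 chondrogenic markers. An alternative was counted as moving a result past 1.5 times for a count, 0.585 for a log2 difference, 0.1 for a correlation, or outside the 95% interval for a share. Spike-in counts were used only for comparison with the size factors.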

Additional observations from a re-analysis of the deposited data

Results flagged for a closer look

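The authors left 26 cells out of the normalized table, 20 of the autopod and 6 of the zeugopod, and these stand outside the comparisons. Among them 10 cells held at least 1 member at 5 reads or more, which is a signal in cells that were not analysed. The 26 cells had a median of 25639.5 reads on genes (range 17 to 2926028). *Hsp90b1* was detected most often, in 4 of the 20 autopod cells and 3 of the 6 zeugopod cells, with at most 549 reads, and *Hspa5* in 2 and 3. *Pdia3* was detected in 2 of the 20 autopod cells (10%, 95% interval 1.23 to 31.7%), with at most 21 reads, and in none of the 6 zeugopod cells.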

How the results depend on the processing

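No paired analysis was possible because the labels name no embryo per cell. Of 153 values of 27 results under alternatives, 33 moved and 2 reversed by the limits stated with the processing, and the cause was not tested. Among those counted as moved, the median rho with *Col1a1* in autopod NXT0072 also changed sign, from -0.00206 to 0.185 on normalized values. Members lower in the autopod within NXT0143 numbered 2, but 5 on CPM, 4 on CPM after thinning, 5 without the 50 genes of most reads, 0 by the log2 ratio of means, 1 without cells under 1000000 reads, 5 without chondrogenic cells, 4 after subtracting the median of all genes and 8 with all cells of the count table on CPM. By the log2 ratio of means, 1 was lower between NXT0072 and NXT0142 and 1 over all cells. In the zeugopod 1 was lower in NXT0143 by medians over cells and 4 without chondrogenic cells. Shares of all genes tested were taken only for the main measure and for CPM of retained cells. The counts under other alternatives stand without them. The median difference within NXT0143 was -1.34 on CPM and -1.33 without the 50 genes, and within the limit it ran from -1.20 without chondrogenic cells and -0.91 on CPM after thinning to -0.23 without cells under 1000000 reads and -0.05 by the log2 ratio of means. In the order autopod NXT0072, autopod NXT0143, zeugopod NXT0142, zeugopod NXT0143, normalized values gave a median rho among members of 0.406, 0.311, 0.347 and 0.424 and with *Col1a1* of 0.185, 0.0418 (reversed), 0.332 and 0.248. Given genes detected, autopod NXT0072 had 0.0497 among members and 0.0527 with *Col2a1* (reversed), and zeugopod NXT0142 had -0.0806 with *Col2a1*. Within the limit of 0.1, signs turned in zeugopod NXT0143, to -0.0183 with *Col1a1* given genes detected, to -0.00963 with *Col1a1* after thinning and to -0.000925 with *Col2a1* without chondrogenic cells. Without chondrogenic cells autopod NXT0143 had 0.252 among members, -0.293 with *Col1a1* and -0.318 with *Col2a1*. At 1 read the median share of cells with a member was 88.1% in autopod NXT0072. The span over *Hoxd* combinations was 5.23 on CPM and 5.52 after thinning. With 4 chondrogenic markers, 8 members were higher in such cells of autopod NXT0072 (at most 6 cells) and 1 in zeugopod NXT0142 (at most 5 cells). On CPM, thinned or not, 6 were higher in autopod NXT0143. With 2 markers autopod NXT0143 gave no value, since all its cells fell in 1 class. Depth limits detection: 3, 1, 2 and 2 cells of the 4 groups in that order had under 500000 reads.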
